A study of Mus musculus with 12 samples.

Results

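Fos, Fosb, Fosl1, Jun, Junb, Jund, Egr1, Ier2, Ier3 and Klf4 are AP-1 subunits and immediate early genes, and they were followed in mouse alpha cells and beta cells treated with the small molecule GW8510. The genes were chosen by name, and all 13 probe sets that carry their symbols were read, of 20050 probe sets (10 of 12255 genes) that could be tested. The alpha cells were aTC1, a line from a glucagon-producing mouse islet tumour, and the beta cells were bTC3, a line from an insulin-producing one. Both tumours arose in mice in which an islet hormone promoter drives the large T antigen of SV40, which inactivates the retinoblastoma protein, so every group carries this transgene. The 4 groups were alpha cells with 3.3 µM GW8510, alpha cells with 0.1% DMSO, beta cells with 3.3 µM GW8510 and beta cells with 0.1% DMSO, with 3 biological replicates each. Cultures were collected on day 5, after medium and compound had been renewed on day 3. GW8510 is a kinase inhibitor thought to act on CDK2, and DMSO served as the vehicle control. The subclone of the alpha line used for the arrays and the medium of the beta line were not given in the labels, and the source names of GW8510 replicates 2 and 3 carry other compound numbers than their titles and treatments.

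AP-1 is a dimer of leucine zipper proteins. JUN proteins pair with each other or with FOS proteins and bind a short palindromic site in promoters and enhancers. Immediate early genes are switched on within minutes of a growth factor, hormone, depolarization or stress signal without new protein synthesis, through serum response factor, CREB and the MAP kinases, and their mRNAs are mostly short-lived. In islet cells glucose and hormones that raise cAMP are known inducers. The arrays read a single time, day 5, so the values describe a level under continued treatment and not the early induction.

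Most arrays were close to each other in median intensity. The median intensity lay between 173.7 and 182.0 on 11 arrays and at 199.9 on replicate 3 of the beta cells with GW8510, which stood 0.13 log2 units above the rest of its group, so the results of the 10 genes in beta cells are also given without it. Among dim probe sets, replicate 1 of the alpha cells with GW8510 read higher than replicates 2 and 3. Its lower quartile was 61.0, against 55.0 and 53.3. It had 703 probe sets at the lower bound, against 951 and 1038. Gcg was at the upper bound of 20000 on all arrays of alpha cells, and Ins2 was at that bound on all arrays of beta cells. Beta cells also gave Gcg means of 12041 with GW8510 and 6420 with DMSO, and the delta cell hormone gene Sst gave means of 20000 with GW8510 and 17819 with DMSO. Of 16 marker genes of acinar, duct, fibroblast, immune and endothelial cells, 15 were measured. Their summed intensity was 1627 to 1803 with GW8510 and 1426 to 1454 with DMSO in alpha cells, and 1247 to 1464 with GW8510 and 1001 to 1123 with DMSO in beta cells. Ptprc, the common leukocyte marker, had means of 21.2 or less, at or near the lower bound of 20. In alpha cells Cela1 and Cd3e passed the test and in beta cells Cela1 and Col1a2 did. Islet markers also moved with GW8510. In alpha cells the beta cell genes Pdx1, Iapp and Ins2 rose 5.28-fold, 2.73-fold and 1.56-fold on their brightest probe sets and the delta cell gene Hhex rose 2.03-fold, while of the alpha cell genes Irx1 and Irx2 fell (log2 -0.78 and -0.45) and Pou3f4 and Ttr rose (0.89 and 1.25). In beta cells Slc2a2, a glucose transporter gene, rose 34.7-fold, Slc7a2 2.28-fold and Gcg 1.87-fold, while Pdx1 and Nkx6-1 fell (log2 -0.20 and -0.27). A dimmer Pdx1 probe set gave a log2 fold change of 0.54 in alpha cells, against 2.40 on the brightest, and 0.145 in beta cells. The part of these markers in the results was not tested.

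GW8510 changed most of these genes, but not in 1 direction and not alike in the 2 lines. Klf4 and Junb rose in both lines and Jund fell in both. Egr1 fell and Fos and Fosl1 rose in alpha cells, while Ier2 and Ier3 rose in beta cells. The test of the difference between lines passed for Egr1, Fos and Ier3 but not for Fosl1 or Ier2. In alpha cells 7 of 13 probe sets were higher at an adjusted p under 0.05 (limma, adjusted over all 20050 probe sets) and 3 were lower, against 18.8% and 20.8% of all probe sets. In beta cells 7 were higher and 1 was lower, against 18.6% and 13.8%. The median log2 fold change of the 13 probe sets was 0.24 in alpha cells and 0.39 in beta cells, against 0.02 and 0.06 over all probe sets. By the brightest probe set of each gene, the medians were -0.04 in alpha cells and 0.30 in beta cells, against 0.03 and 0.07 over all genes. The direction of the median in alpha cells thus depended on which probe sets were counted, among them the 2 of Jun, which disagreed there (-0.34 and 0.31). The arrays with GW8510 lay entirely apart from those with DMSO for 10 of 13 probe sets in alpha cells and 8 in beta cells, against 50.0% and 44.5% of all probe sets. Without replicate 3 of the beta cells with GW8510, 6 probe sets were higher and 1 was lower in beta cells, and the call lost was Ier2. Over all probe sets that array also decided which direction held more calls in beta cells, with 3723 higher and 2764 lower with it and 3001 higher and 3179 lower without it.

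**Figure D1:**
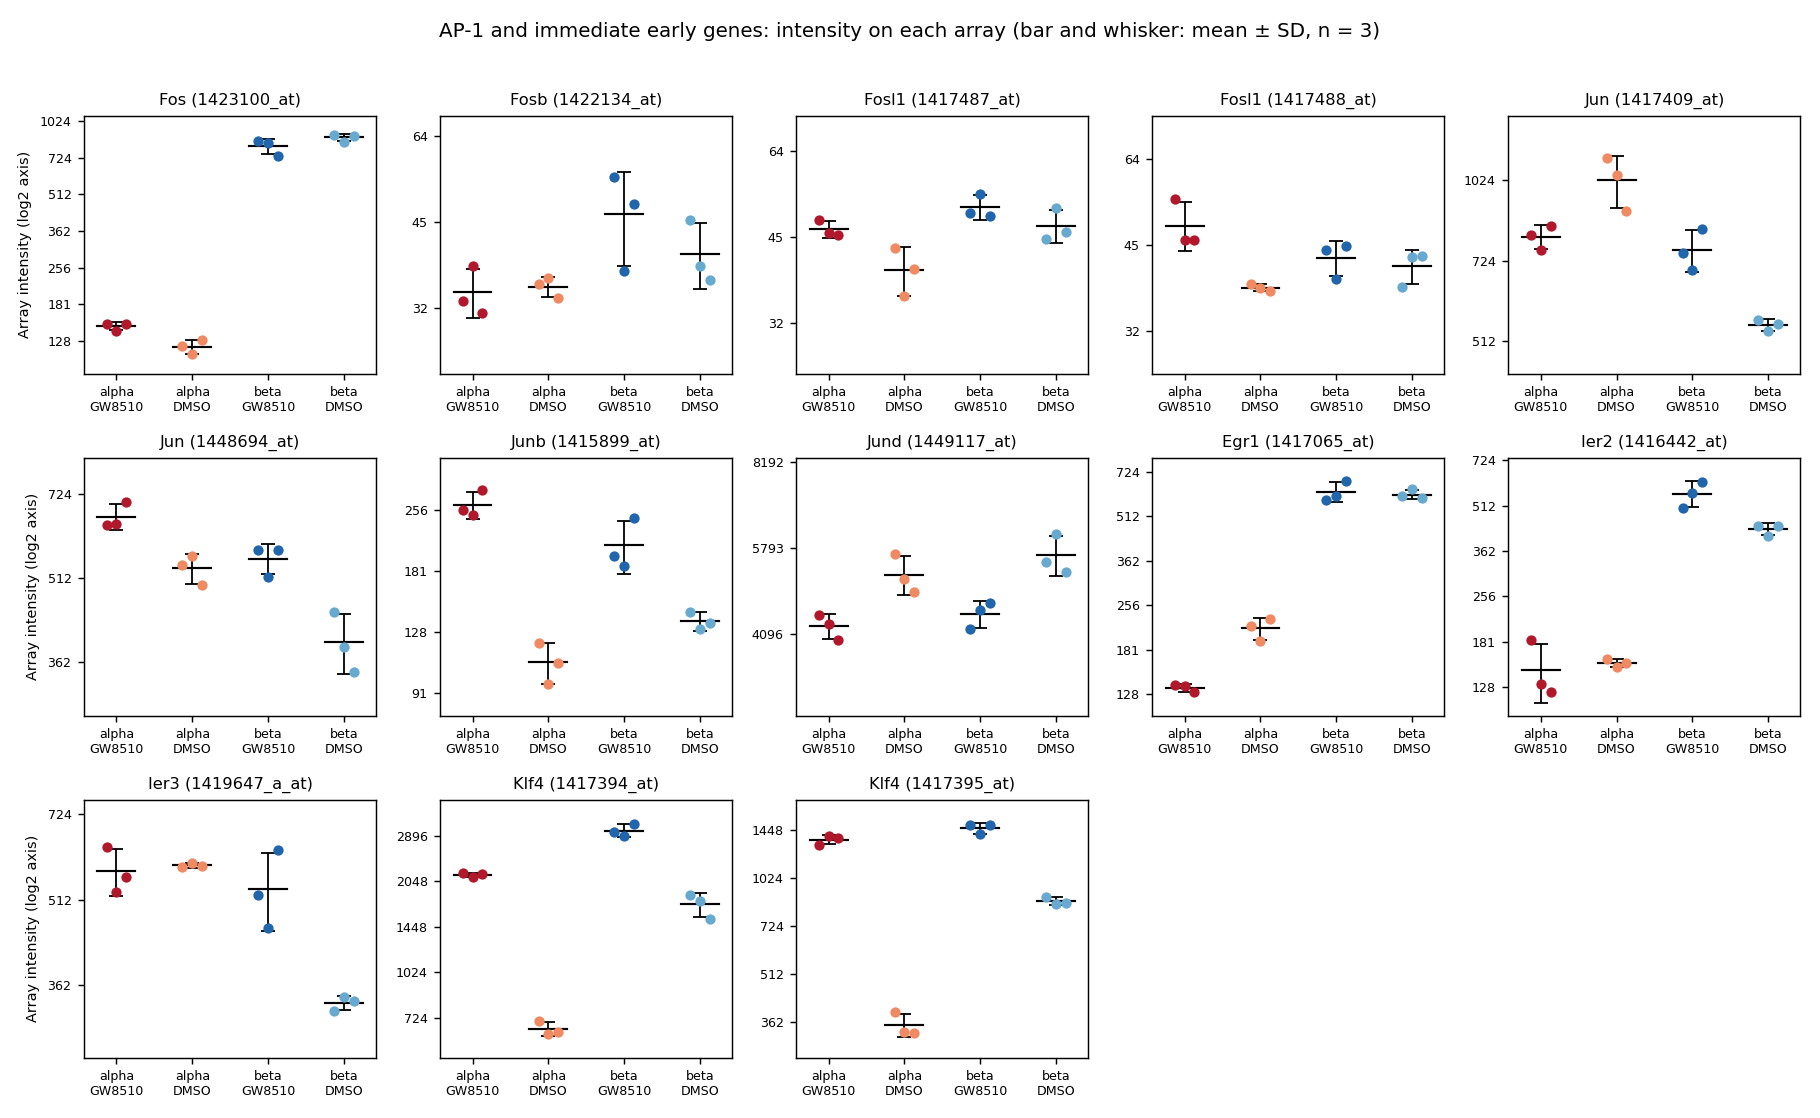
Intensity of each of the 13 probe sets on each of the 12 arrays (vertical log2 axis, with its own range in each panel), with GW8510 left of DMSO for alpha cells and then beta cells. Points are arrays and the bar with whiskers is the mean ± SD (n = 3); the 3 arrays of alpha cells with GW8510 stand well above those with DMSO for Junb and both Klf4 probe sets, and below them for Egr1.

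The 3 JUN genes encode the subunits that can form AP-1 dimers alone. Junb, which encodes a subunit that can restrain JUN activity and cell cycle entry, gave the largest change among them. Its intensity was 256, 248 and 286 on the arrays of alpha cells with GW8510 and 120.2, 95.4 and 107 on those with DMSO. The groups were far apart, and the rise was 2.45-fold, a log2 fold change of 1.29 ± 0.11 (SE, adjusted p = 1.79e-06). In beta cells Junb read 197, 186 and 245 with GW8510 and 144, 129.8 and 135 with DMSO. These groups were also apart, with replicate 3 of the GW8510 arrays the highest, and the rise was 1.53-fold (log2 0.61 ± 0.11, adjusted p = 0.00113). Without that replicate the log2 fold change was 0.49 (adjusted p = 0.00362). Junb had the lowest mean of the 4 groups in alpha cells with DMSO and the highest in alpha cells with GW8510.

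Jun encodes c-JUN, the subunit that JNK phosphorylates. It was read by 2 probe sets, which disagreed in alpha cells. Probe set 1417409_at, the brighter of them, gave 810.2, 759 and 843 in alpha cells with GW8510 and 1126, 1046 and 898 with DMSO. It was lower on every array with GW8510 (log2 fold change -0.34 ± 0.09, adjusted p = 0.00808). Probe set 1448694_at gave 638, 641 and 701 with GW8510 and 539.9, 561 and 498 with DMSO in alpha cells. It was higher on every array with GW8510 (log2 0.31 ± 0.09, adjusted p = 0.0161), so no direction can be given for Jun in alpha cells. This second call was lost when replicate 3 of alpha DMSO (adjusted p = 0.0682) or replicate 3 of alpha GW8510 (adjusted p = 0.059) was left out. In beta cells both probe sets rose. They read 749, 695 and 829 with GW8510 and 562, 534 and 552 with DMSO for 1417409_at, and 574, 515 and 575 with GW8510 and 445, 386 and 348 with DMSO for 1448694_at. The arrays did not overlap on either, and the log2 fold changes were 0.46 (adjusted p = 0.00177) and 0.50 (adjusted p = 0.0011). Without replicate 3 of beta GW8510 they were 0.39 and 0.47 (adjusted p = 0.00789 and 0.00567).

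Jund, whose product is the JUN protein of resting cells and is held back by menin, was the member that fell in both lines. Alpha cells gave 4425, 4265 and 3995 with GW8510 and 5641, 5105 and 4851 with DMSO. Beta cells gave 4169, 4510.1 and 4641 with GW8510 and 5482, 6133 and 5265 with DMSO. All GW8510 arrays lay below all DMSO arrays of the same line, by a log2 fold change of -0.30 (adjusted p = 0.00949) in alpha cells and -0.34 (adjusted p = 0.00568) in beta cells, or -0.37 without replicate 3 of beta GW8510 (adjusted p = 0.00828). In RNA of whole cultures, less RNA per cell and fewer cells with the RNA cannot be told apart.

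The FOS genes encode subunits that need a JUN partner. Fos gave 151, 141 and 149.9 in alpha cells with GW8510 and 122, 113 and 129 with DMSO. The arrays did not overlap, and the rise was small (log2 fold change 0.28 ± 0.07, adjusted p = 0.00674). In beta cells Fos read 846, 832 and 737 with GW8510 and 894, 841 and 890.4 with DMSO. These groups overlapped, the log2 fold change was -0.12 with a 95% interval of -0.28 to 0.03, and it did not pass (adjusted p = 0.217). Without replicate 3, the lowest GW8510 array, it was -0.06 (adjusted p = 0.564).

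Fosl1, which encodes FRA-1, a FOS protein that lacks the strong activation domain of c-FOS, was dim throughout, between 35.7 and 54.6 on its 2 probe sets over the 12 arrays. Probe set 1417488_at read 54.6, 46.2 and 46.2 in alpha cells with GW8510 and 38.8, 38.1 and 37.7 with DMSO. The groups were apart and the log2 fold change was 0.36 (adjusted p = 0.00395). The other probe set, 1417487_at, gave 0.24 in alpha cells (adjusted p = 0.0267), a call that was lost without alpha DMSO replicate 2 (adjusted p = 0.123) or 3 (0.0596) or alpha GW8510 replicate 1 (0.0788) or 2 (0.0535). In beta cells the log2 fold changes of 0.05 and 0.11 did not pass, nor did those of 0.01 and 0.13 without replicate 3 of beta GW8510. Fosb, whose shorter splice form accumulates under repeated stimulation in neurons, lay between 31.4 and 54.2 and passed in neither line (log2 -0.04 in alpha cells, 0.22 in beta cells). In beta cells its log2 fold change was 0.38 without replicate 2 of beta GW8510 (adjusted p = 0.0288) and 0.18 without replicate 3 (adjusted p = 0.458). Fosb and Fosl1 were among the dimmest 25% of probe sets, where a change is hard to read.

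**Figure D2:**
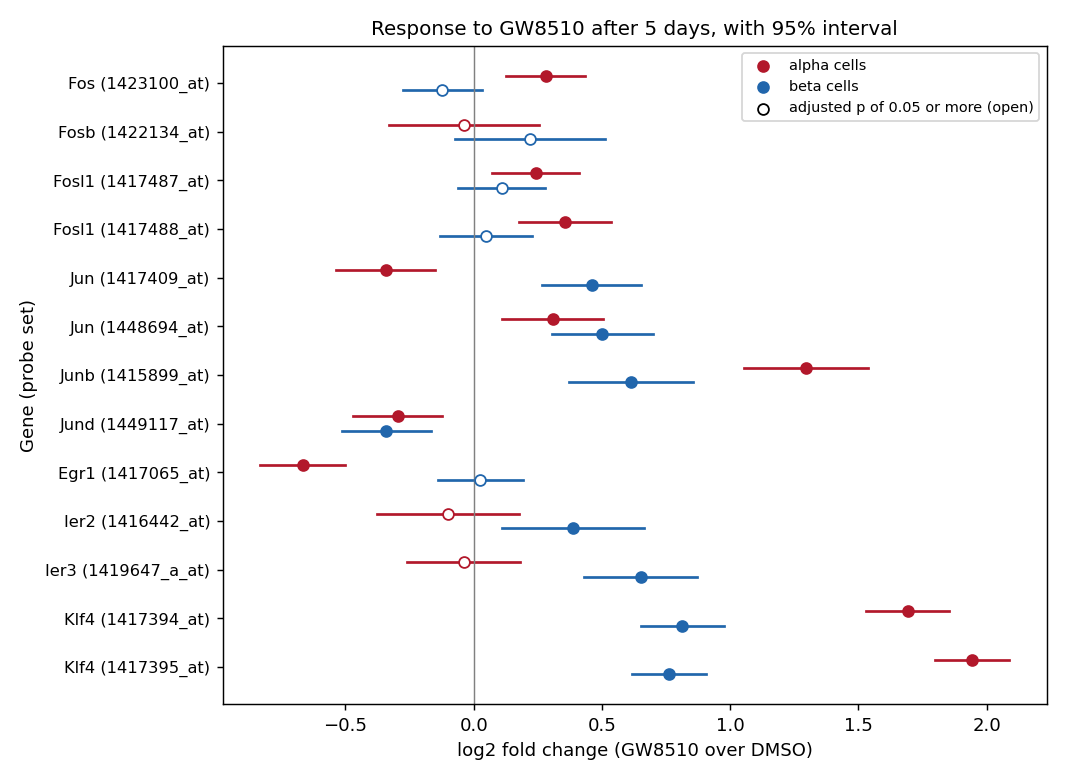
Log2 fold change of GW8510 over DMSO on day 5 for each probe set (horizontal axis), red for alpha cells and blue for beta cells, with 95% intervals from limma. Filled points passed at an adjusted p under 0.05; the 2 Klf4 probe sets lie at 1.69 and 1.94 in alpha cells and at 0.81 and 0.76 in beta cells, and the 2 lines lie on opposite sides of 0 for the upper Jun probe set.

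Klf4 and Egr1 encode zinc finger transcription factors that bind GC-rich sites. Klf4, one of the factors used to reprogram fibroblasts and a brake on the cell cycle in gut epithelium, changed most of all 10 genes. Probe set 1417394_at read 2180, 2109 and 2160 in alpha cells with GW8510 and 708, 640.1 and 649 with DMSO. The rise was 3.23-fold (log2 1.69 ± 0.07, adjusted p = 8.09e-09). In beta cells it read 2972, 2884 and 3174 with GW8510 and 1848, 1764 and 1536 with DMSO. The groups were again entirely apart, with a rise of 1.76-fold (log2 0.81 ± 0.07, adjusted p = 7.73e-06). Probe set 1417395_at read 1303, 1387 and 1373 in alpha cells with GW8510 and 387, 337 and 334 with DMSO, and in beta cells 1502, 1408 and 1507 with GW8510 and 895, 851 and 855 with DMSO. It was higher on every GW8510 array of either line and rose 3.85-fold in alpha cells and 1.70-fold in beta cells (log2 1.94 and 0.76, adjusted p = 1.18e-09 and 5.34e-06). Without replicate 3 of beta GW8510 the log2 fold changes in beta cells were 0.78 and 0.75 (adjusted p = 6.38e-05 and 4.54e-05).

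Egr1, an early growth response factor induced through serum response factor, fell in alpha cells and did not pass in beta cells. It read 137, 136 and 129 in alpha cells with GW8510 and 218, 193 and 229.6 with DMSO. No array overlapped, and the log2 fold change was -0.67 ± 0.08 (adjusted p = 2.02e-05), a level 0.63 times that with DMSO. In beta cells Egr1 read 583, 599.6 and 673 with GW8510 and 599, 632 and 589.8 with DMSO. These overlapped, with a log2 fold change of 0.03 and a 95% interval of -0.14 to 0.19 (adjusted p = 0.835). Without replicate 3, the highest GW8510 array, it was -0.04 (adjusted p = 0.777).

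Promoter sequence was read for 7 of the 10 genes, in windows of 250 bases before to 50 bases after the RefSeq start (assembly GRCm38.p6). Egr1, Fosl1 and Ier2 were not searched. The windows of Klf4 and Junb, the genes that rose in both lines on every probe set, are shown. Capitals mark a match to the EGR site GCGGGGGCG, which here lies on the opposite strand, so it reads as its reverse complement. Klf4 is at chr4:55532426-55532725 and Junb at chr8:84978699-84978998, both on the minus strand.
Klf4: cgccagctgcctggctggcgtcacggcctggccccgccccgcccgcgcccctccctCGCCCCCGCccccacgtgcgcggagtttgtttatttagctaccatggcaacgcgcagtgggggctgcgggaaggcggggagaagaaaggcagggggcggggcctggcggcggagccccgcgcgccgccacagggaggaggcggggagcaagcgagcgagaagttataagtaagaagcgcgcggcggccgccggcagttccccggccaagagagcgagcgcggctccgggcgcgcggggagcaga
Junb: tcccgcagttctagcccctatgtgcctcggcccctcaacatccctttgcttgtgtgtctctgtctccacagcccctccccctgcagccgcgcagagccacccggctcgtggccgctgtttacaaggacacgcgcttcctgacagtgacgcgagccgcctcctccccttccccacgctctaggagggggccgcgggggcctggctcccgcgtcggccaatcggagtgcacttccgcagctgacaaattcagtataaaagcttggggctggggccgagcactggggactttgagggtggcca
On both strands of the 7 windows, the AP-1 site TGACTCA, the cAMP response element TGACGTCA and the CArG box of serum response factor (CC, then A or T at each of 6 positions, then GG) were not matched. The EGR site was matched once in Klf4, at -194 to -186 from the start, and once in Fosb, at -50 to -42. Over 32851 windows of this length, 2.91% held the EGR site, 5.2% the AP-1 site, 1.79% the cAMP response element and 1.63% the CArG box. A match describes the letters and is not a binding site. A lack of a match holds only for these exact letters in these windows. Variant letters and sequence farther from the start were not searched.

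Ier2 and Ier3 encode small immediate early proteins, of which IER3 is known as a stress-induced regulator of cell survival. Ier3 read 634, 527 and 559.5 in alpha cells with GW8510 and 583, 593 and 586 with DMSO. These overlapped, with a log2 fold change of -0.04 and a 95% interval of -0.26 to 0.18. In beta cells Ier3 read 522, 457 and 624 with GW8510 and 327, 346 and 339.7 with DMSO. The groups were apart, replicate 3 being again the highest, and the rise was 1.57-fold (log2 0.65 ± 0.10, adjusted p = 0.000381). Without that replicate the log2 fold change was 0.53 (adjusted p = 0.000764).

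Ier2 read 183, 131 and 123 in alpha cells with GW8510 and 159, 149.7 and 153 with DMSO. Replicate 1 lay above all DMSO arrays and the other two below them, and the log2 fold change of -0.10 did not pass (adjusted p = 0.587). Without replicate 1 it was -0.28 (adjusted p = 0.0217). In beta cells Ier2 read 504, 564 and 614 with GW8510 and 439, 405 and 439 with DMSO. The arrays were apart, and the log2 fold change was 0.39 (adjusted p = 0.0346). This call was lost when any of 5 beta arrays was left out, namely DMSO replicate 1 (adjusted p = 0.0679), 2 (0.112) or 3 (0.0618) or GW8510 replicate 2 (0.0786) or 3 (0.127).

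The response of alpha cells was tested against that of beta cells. It differed for 7 of the 13 probe sets, with 4 higher in alpha cells and 3 lower, against 10.8% and 15.3% of all probe sets. Klf4 rose more in alpha cells on both probe sets, by log2 differences of 0.88 ± 0.10 and 1.18 ± 0.09 (adjusted p = 7.34e-05 and 2.92e-06). Junb also rose more in alpha cells (difference 0.68 ± 0.16, adjusted p = 0.00685), and the Fos response differed by 0.40 ± 0.10 (adjusted p = 0.0104). On the lower side were Egr1 and Ier3, each at -0.69 (adjusted p = 0.000542 and 0.00358), and Jun probe set 1417409_at at -0.80 (adjusted p = 0.000566). The other Jun probe set gave -0.19 with a 95% interval of -0.47 to 0.09. Jund fell alike in direction, and the difference of 0.04 had a 95% interval of -0.20 to 0.29 (adjusted p = 0.837). Ier2 at -0.49 (adjusted p = 0.0662) and Fosl1 probe set 1417488_at at 0.31 (adjusted p = 0.0727) did not pass. Ier2 passed when replicate 1 of alpha GW8510 was left out (adjusted p = 0.00142), and that Fosl1 probe set did without replicate 1 of beta DMSO (adjusted p = 0.0457). Without replicate 3 of the beta cells with GW8510 the counts were again 4 and 3.

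The lines differed before any compound. With DMSO, 3 probe sets were higher in alpha cells than in beta cells and 7 were lower, against 29.6% and 26.0% of all probe sets. Fos had the largest gap, with means of 121 ± 8.07 in alpha cells and 875 ± 29.7 in beta cells (SD, n = 3), a level 7.23-fold lower in alpha cells (log2 -2.85, adjusted p = 1.17e-11). Egr1 was 2.85-fold lower, Ier2 2.78-fold lower and Klf4 2.57-fold and 2.46-fold lower on its 2 probe sets. Jun was higher in alpha cells on both probe sets (log2 0.89 and 0.44) and so was Ier3 (0.80, adjusted p = 2.09e-05). Junb was lower in alpha cells (log2 -0.34, adjusted p = 0.019), as was Fosl1 on probe set 1417487_at (-0.26, adjusted p = 0.0129). The Junb call was lost without replicate 2 of alpha DMSO (adjusted p = 0.0876) or replicate 1 of beta DMSO (0.0692), and the Fosl1 call without replicate 2 of alpha DMSO (0.064) or replicate 2 of beta DMSO (0.0612). Jund differed by -0.11 (adjusted p = 0.251) and Fosb by -0.18 (adjusted p = 0.275). Because DMSO arrays of alpha cells enter both contrasts, the line difference and the response difference are set side by side here and not correlated. Klf4 in alpha cells with GW8510 (2149.9 ± 36.7 on 1417394_at, mean ± SD) lay above beta cells with DMSO (1716 ± 161) and below beta cells with GW8510 (3010.2 ± 149), and on each of these steps the arrays did not overlap. For Fos and Egr1 every array of alpha cells lay below every array of beta cells, whatever the treatment.

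**Figure D3:**
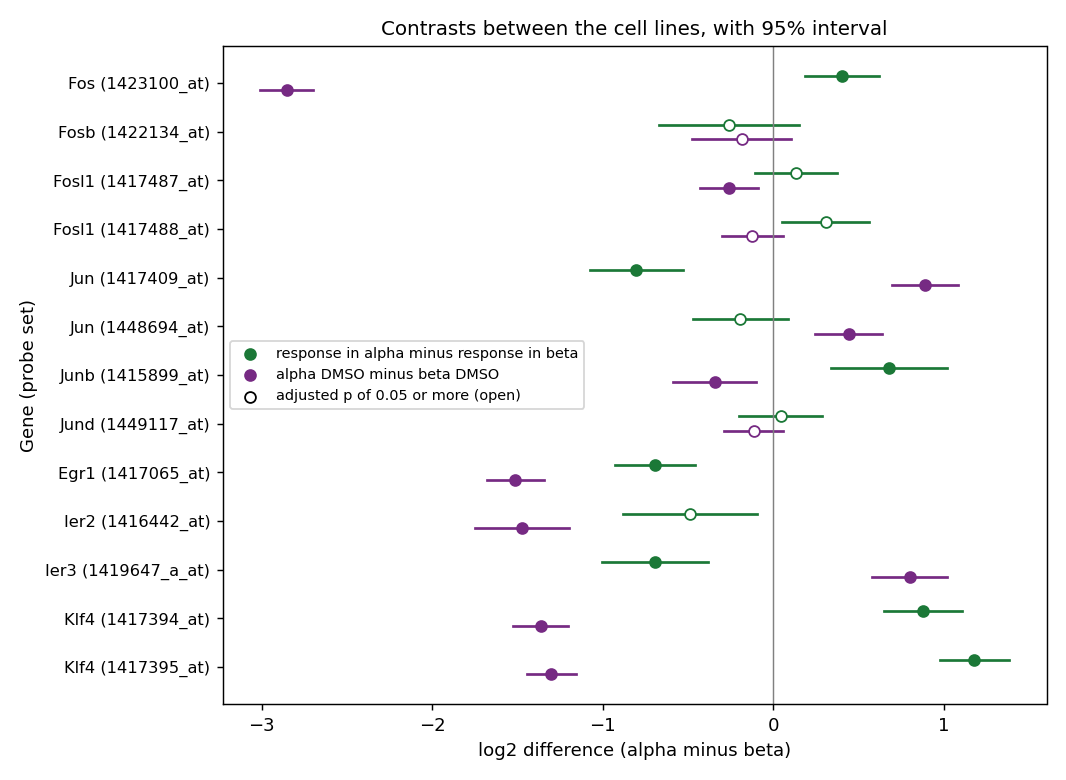
Log2 differences between the lines for each probe set (horizontal axis), with 95% intervals from limma and filled points for an adjusted p under 0.05. Green is the response to GW8510 in alpha cells minus that in beta cells, and purple is alpha cells minus beta cells with DMSO; Fos shows the largest line difference at -2.85, and the Klf4 probe sets show response differences of 0.88 and 1.18.

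Other genes around AP-1 were read from 5 lists, each gene by its brightest probe set. On this scale 19.9% of 12255 genes were higher and 20.9% lower with GW8510 in alpha cells, and 19.3% and 14.1% in beta cells, with medians of 0.03 and 0.07. The beta cell counts of the lists include replicate 3 of GW8510 and were not repeated without it. Over all probe sets, that array decided which direction held more calls. Of 13 other AP-1 and partner leucine zipper genes tested, 1 rose and 3 fell in alpha cells, and 2 rose and 1 fell in beta cells, with medians of -0.01 and 0.10. Atf3, a stress-induced member that pairs with JUN, read 136, 133 and 132 in alpha cells with GW8510 and 629, 630.2 and 508 with DMSO. It was far lower on every array (log2 fold change -2.13, adjusted p = 2.19e-09), while in beta cells it read 411, 385 and 417 with GW8510 and 301, 304 and 285 with DMSO and rose by 0.44 (adjusted p = 0.00108). Jdp2, which encodes a JUN dimerization protein that represses AP-1 sites, read 114, 111 and 117 in alpha cells with GW8510 and 406, 428 and 391 with DMSO. That probe set fell by 1.84 on the log2 scale (adjusted p = 1.3e-08), but a dimmer Jdp2 probe set gave 0.117, and in beta cells the brighter one did not pass (adjusted p = 1). Atf2, a JUN partner that p38 and JNK phosphorylate, fell in both lines (-0.51 and -0.53), although 1 of its 3 dimmer probe sets gave 0.164 in beta cells, and Mafk, a small MAF protein, rose in both (0.26 and 0.40).

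Of 44 other immediate early genes tested, 15 rose and 11 fell in alpha cells (median 0.09), and 19 rose and 1 fell in beta cells (median 0.20, replicate 3 of GW8510 included). The fall in beta cells was Rgs2, a regulator of G protein signalling (-0.44), which rose in alpha cells (0.73). Rhob, a stress-induced small GTPase, had means of 1558 with GW8510 and 441 with DMSO in alpha cells and rose in both lines (log2 1.82 and 0.83). Phlda1 (1.31 and 0.33) also rose in both. Ier5, a relative of Ier2, and Nfkbia, the inhibitor of NF-kappaB, rose in alpha cells (1.17 and 1.12) and gave -0.07 and 0.02 in beta cells, where neither passed (adjusted p = 0.537 and 0.907). The dimmer Nfkbia probe sets gave 0.165, 1.71 and 1.21 in alpha cells. The largest rises in beta cells were those of Klf2 (1.29) and Klf6 (1.08), relatives of Klf4, then Plk2, a stress-induced kinase (0.97), and all 3 also rose in alpha cells (0.52, 0.55 and 0.83). Bhlhe40, a clock-linked repressor, had means of 2004 with GW8510 and 4029 with DMSO in alpha cells, a fall of 1.01 on the log2 scale, and of 1298 with GW8510 and 701 with DMSO in beta cells, a rise of 0.89. The difference between these responses was -1.90 (adjusted p = 1.44e-08).

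**Figure D4:**
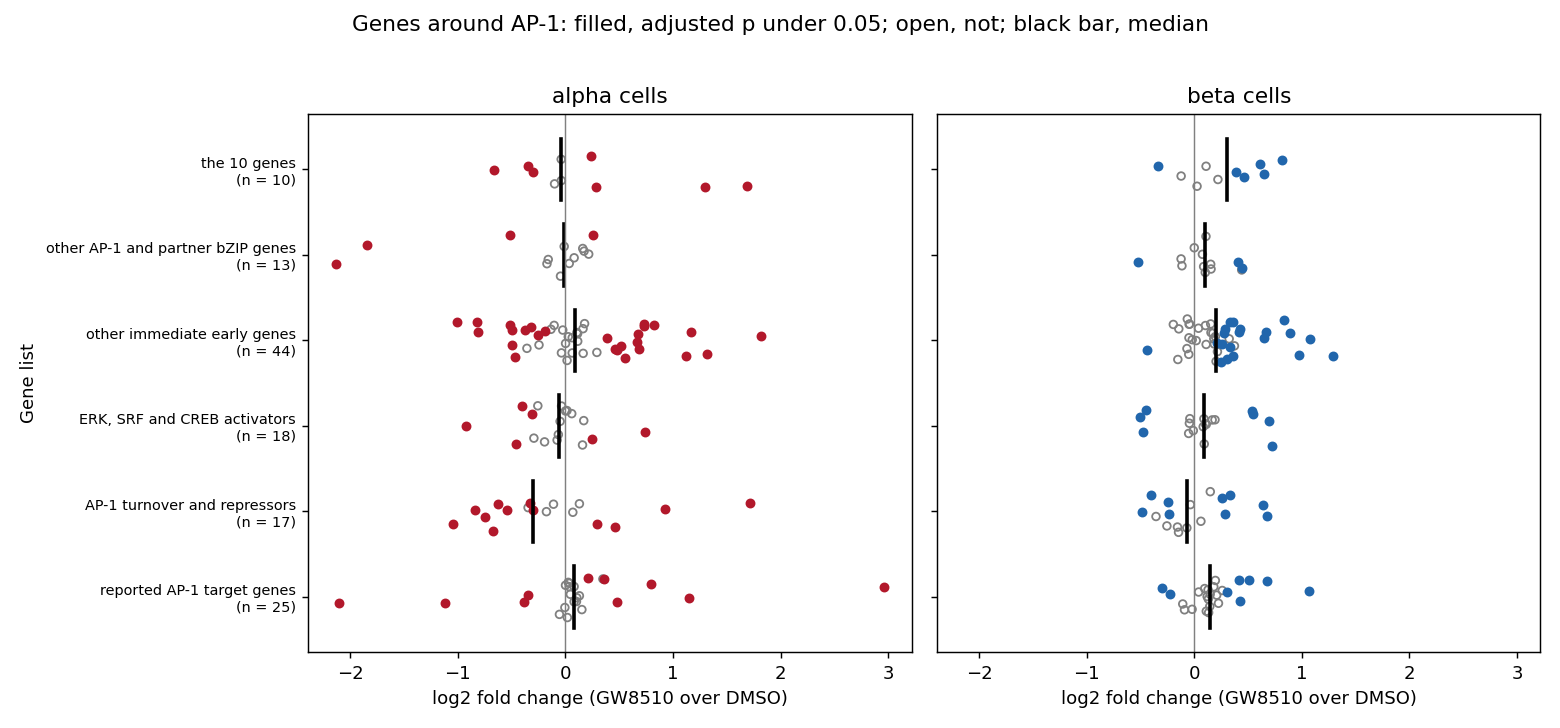
Log2 fold change of GW8510 over DMSO (horizontal axis) for the genes of each list by their brightest probe set, alpha cells left and beta cells right. Each point is a gene, filled where the adjusted p was under 0.05, and the black bar is the list's median; the AP-1 turnover and repressor list has a median of -0.30 in alpha cells and -0.07 in beta cells.

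Of 18 kinases and factors that act upstream of immediate early genes (the RAS to ERK cascade, serum response factor and CREB) and could be tested of 29 listed, 2 rose and 4 fell in alpha cells (median -0.06), and 4 rose and 3 fell in beta cells (median 0.09). Rps6ka3, an ERK-activated kinase that phosphorylates CREB, fell in both lines (-0.92 and -0.51, with its other probe sets between -0.191 and 0.194). Prkacb, a catalytic subunit of protein kinase A, fell in both as well (-0.40 and -0.45), and Araf rose in both (0.74 and 0.73). The dimmer Prkacb probe set gave -0.354 in alpha cells and -0.0767 in beta cells. Braf fell in alpha cells (-0.46) and Mrtfb, a coactivator of serum response factor, rose in beta cells (0.69). Map2k1, which encodes the ERK kinase MEK1, fell in alpha cells (-0.31) and rose in beta cells (0.54), a difference of -0.85 (adjusted p = 9e-05). Nras rose in both (0.24 and 0.54), and Crebbp, a CREB coactivator, was the remaining fall in beta cells (-0.48).

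Of 17 genes tested that bear on the turnover or restraint of AP-1, ERK or EGR proteins, 4 rose and 8 fell in alpha cells, and 5 rose and 4 fell in beta cells, with medians of -0.30 and -0.07. Fbxw7, the ubiquitin ligase subunit that marks c-JUN for degradation, read 926, 894 and 907 in alpha cells with GW8510 and 265, 292 and 273 with DMSO. The rise was 3.28-fold (log2 1.72, adjusted p = 1.02e-09), its other probe set gave 2.05, and in beta cells it fell (-0.40, adjusted p = 0.000223). The EGR corepressors went apart, with Nab2 lower in both lines (-1.05 and -0.25) and Nab1 higher in both (0.92 and 0.64). Spred2, an inhibitor of ERK signalling, fell in both on its brighter probe set (-0.84 and -0.49), while the other gave -0.119 in alpha cells and 0.0562 in beta cells. Dusp16, a JNK phosphatase, rose in beta cells (0.67) and gave 0.13 in alpha cells (adjusted p = 0.16). The remaining falls in alpha cells were Dusp8 (-0.75), Dusp10 (-0.67), Spred1 (-0.63), Itch (-0.54), Cop1 (-0.33) and Gsk3b (-0.30). The remaining rises were Hdac3 (0.47) and Cops5 (0.29) in alpha cells and Dusp10 (0.33), Men1 (0.28) and Hdac3 (0.26) in beta cells, where Gsk3b was the remaining fall (-0.24).

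Of 25 reported AP-1 target genes tested of 30 listed, 6 rose and 4 fell in alpha cells (median 0.08), and 6 rose and 2 fell in beta cells (median 0.14). S100a6, which encodes a calcium-binding protein, read 298, 291 and 535 in alpha cells with GW8510 and 47.7, 42.7 and 47.9 with DMSO, with replicate 3 the highest. It rose 7.80-fold there and 2.09-fold in beta cells (adjusted p = 3.04e-07 and 0.00172). The DMSO means of S100a6, 46.1 in alpha cells and 37.0 in beta cells, lay below the lower quartile of every DMSO array. The size of these folds is thus uncertain. The metallothionein genes Mt2 and Mt1, whose products bind zinc and other metals, fell in alpha cells (-2.10 and -1.12) and rose in beta cells (0.51 and 0.30), although the second Mt1 probe set gave -0.107 in alpha cells. Ccnd1, which encodes cyclin D1, rose in alpha cells on all 3 probe sets (1.15 on the brightest, adjusted p = 4.28e-05) and gave -0.09 in beta cells on that probe set. Vim rose in both lines on its brightest probe set (0.36 and 0.68). Its dimmer ones gave 0.221 and 0 in alpha cells and 0.515 and 0.215 in beta cells. Cdk1, the mitotic kinase gene, rose in beta cells (0.42) and gave -0.06 in alpha cells. The other falls in alpha cells were Cd44 (-0.38) and Dnmt1 (-0.35), and those in beta cells were Dnmt1 (-0.30) and Gclc (-0.23). Cd44 rose in beta cells (0.42) and Gclc rose in alpha cells (0.80). The dimmer Cd44 probe set gave -0.0295 in alpha cells and -0.0512 in beta cells.

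For the 3 members with the widest range of group means, the genes of most similar pattern were found among 3249 genes by Pearson's r over the 12 arrays. These arrays fall into 4 groups, so r mostly compares 4 group means. Nearest to Fos were Ppp2r2b (0.9986), Me1 (0.9971) and Jak2 (0.997), which were also lower in alpha cells than in beta cells. Nearest to Egr1 were Slc25a10 (0.9951), Fbxo16 (0.995) and Nusap1 (0.9947). Nearest to Klf4 were Idi1 (0.9951), Laptm4b (0.9937) and Elovl1 (0.9928), with log2 fold changes of 0.84, 1.02 and 1.14 in alpha cells and 0.48, 0.49 and 0.45 in beta cells.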

How the data were processed

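RNA (500 ng per sample, per the labels) from 4 groups of 3 cultures was read on Affymetrix Mouse Genome 430A arrays. The intensity values deposited by the authors are linear, lie between 20 and 20000 (bounds assumed to be theirs) and, per the submitters' processing notes, come from RMA, with no version given. RMA normalizes arrays to each other, which can remove a shift shared by all genes. The deposited values still held a shift on replicate 3 of the beta cells with GW8510, 0.13 log2 units above its group. Of 22690 probe sets, 64 were controls, 20380 carried 1 gene symbol, 691 several and 1555 none here, and 330 of those with 1 symbol were at a bound on all arrays, which left 20050 to test. Their log2 was taken, with no pseudocount. All 12 arrays were fitted with limma 3.58.1 in R 4.3.3 (group means, contrasts, empirical Bayes, 8 residual and 3.48 prior degrees of freedom), with Benjamini-Hochberg adjustment over all probe sets. The median standard error was 0.087 for a response. The number of arrays limits this precision. A gene's leading probe set has the highest mean log2.

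All members are named. From each list, up to 4 genes with the largest change among those passing in each line are named. Other list genes, named because few passed in a direction or to complete the calls of a direction, were chosen after their values were seen. The members and lists were chosen with earlier results of these data known. Promoters came from RefSeq windows, for 7 of 10 members. Alternatives were quantile normalization, centring, array weights, a trended prior, fits of each line alone, pseudocounts of 1 and 16, the leading probe set only, a filter on the dimmest 25%, all probe sets kept, a block for the replicate number and the omission of each array in turn. Replicate numbers did not pair the arrays.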

Additional observations from a re-analysis of the deposited data

Results flagged for a closer look

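The response to GW8510 differed between alpha cells and beta cells by the test of the difference itself (limma, adjusted over all probe sets) for 7 probe sets of 6 genes. As log2 responses in alpha cells minus those in beta cells, the differences were 0.40 for Fos, 0.68 for Junb, 0.88 and 1.18 for the 2 Klf4 probe sets, -0.69 for Egr1, -0.69 for Ier3 and -0.80 for Jun probe set 1417409_at. For Jun the difference was found on only 1 of its 2 probe sets, since 1448694_at gave -0.19 (adjusted p = 0.32). Groups of 3 arrays were not screened for outlying samples.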

How the results depend on the processing

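Over 24 settings, 1116 of 1159 alternative values of the 52 single results kept their direction and their side of the threshold, 18 lost the threshold, 12 gained it and 13 changed sign. All 13 sign changes were of values that had not passed. With quantile normalization Fosl1 probe set 1417488_at gave -0.0501 and Egr1 -0.00502 in beta cells. With centred arrays Egr1 gave -0.00446 in beta cells. With array weights Fosb gave 0.0771 in alpha cells and Egr1 -0.0299 in beta cells. Leaving out 1 array at a time gave -0.0201 to 0.104 for the Jund difference between lines. In alpha cells it gave -0.113 to 0.0198 for Ier3, -0.116 to 0.0195 for Fosb and -0.276 to 0.00922 for Ier2. In beta cells it gave -0.0112 to 0.109 for Fosl1 probe set 1417488_at and -0.037 to 0.0667 for Egr1. Leaving out each array in turn, the probe sets that passed numbered 8 to 10 in alpha cells, 7 to 8 in beta cells, 7 to 8 for the difference between lines and 8 to 10 between the lines with DMSO. With the replicate block these counts were 10, 8, 7 and 10, as without it, and same-numbered arrays of GW8510 and DMSO deviated together with correlations of -0.13 to 0.057. Over all settings the counts were 7 to 11, 6 to 8, 6 to 9 and 8 to 11, with the lowest counts where only the leading probe set of each of the 10 genes was read. The filter on the dimmest 25% removed Fosb and both Fosl1 probe sets. The Fosl1 call on 1417487_at in alpha cells was also lost with quantile normalization (adjusted p = 0.121), with each line fitted alone (0.0575) and with a trended prior (0.069). The Ier2 difference between lines passed with the dim filter (0.0484), the trended prior (0.033) and array weights (0.00198). The Fosl1 difference on 1417488_at passed with quantile normalization (0.00381), centring (0.0297) and array weights (0.0488), Ier2 in alpha cells with array weights (log2 -0.21, 0.0202), and the Fosl1 line difference with DMSO on 1417488_at with quantile normalization (0.0108). Fits of each line alone give no value for the difference between lines. Over all probe sets in beta cells, 57.4% of calls were higher, 49.1% after quantile normalization and 48.6% without GW8510 replicate 3. Where the text names a lost or gained call, the cause was not tested.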

Other observations

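Among the other immediate early genes, several passed in opposite directions in the 2 lines, and they are named here after their values were seen. Errfi1, an inhibitor of the EGF receptor, had means of 1511 with GW8510 and 2127 with DMSO in alpha cells and of 1529 with GW8510 and 976 with DMSO in beta cells, so it fell in alpha cells (log2 -0.49) and rose in beta cells (0.65), and its other probe set did likewise (-0.521 and 0.773). Siah2, a ubiquitin ligase gene, fell in alpha cells (-0.50) and rose in beta cells (0.42), although its other probe set gave -0.0815 in beta cells. Gadd45b, a stress sensor gene, fell in alpha cells (-0.47) and rose in beta cells (0.67) on its brightest probe set, while its 2 dimmer ones gave 0.0291 and -0.125 in alpha cells. The differences between the lines were -1.14 for Errfi1 (adjusted p = 1.27e-05), -0.92 for Siah2 (adjusted p = 7.12e-05) and -1.14 for Gadd45b (adjusted p = 0.000354).

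Dusp10, a phosphatase of JNK and p38, fell in alpha cells (-0.67) and rose in beta cells (0.33) on its brighter probe set, while the other gave -0.568 in alpha cells and 0.00572 in beta cells. Dusp1, an immediate early phosphatase of the MAP kinases, had means of 1917 with GW8510 and 3382 with DMSO in alpha cells, which was a fall of 0.82 on the log2 scale (adjusted p = 8.3e-06), and gave -0.15 in beta cells (adjusted p = 0.194). On the brighter probe set the responses of the lines differed for Dusp10 (adjusted p = 5.37e-05) and by -0.67 for Dusp1 (adjusted p = 0.0014).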
